A study of Mus musculus with 8 samples.

Results

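The genes described here are the 10 that encode the core of polyamine metabolism and the first step of hypusination in mouse Th17 cells. They were chosen by gene symbol (*Odc1*, *Amd1*, *Srm*, *Sms*, *Sat1*, *Oaz1*, *Oaz2*, *Azin1*, *Eif5a* and *Dhps*), by a rule that uses no measured value but was drawn up with earlier results of these data known, from 13704 genes that had at least 1 read in either of 2 RNA-seq libraries. All 10 were listed in both libraries, and all 10 passed the filter of at least 10 reads over both libraries, which left 10881 genes.

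Naive CD4+ T cells were sorted from spleen and lymph nodes of C57BL/6 wild-type (WT) mice and of TRIM28fl/flxCD4cre mice (KO). In the KO mice both *Trim28* alleles are flanked by loxP sites and Cre is driven by the *Cd4* promoter, so that the gene is deleted in all T cells that have passed through a CD4-expressing stage and not only in Th17 cells. Cells of both genotypes were stimulated with anti-CD3 and anti-CD28, kept for 3 days in medium holding TGF-β (0.5 ng/ml) together with IL-6 (20 ng/ml), which push naive cells towards the Th17 fate, and then given anti-CD3 again. Each genotype has 1 library, and the number of mice behind each was not given in the sources used here. No difference between the genotypes therefore has a replicate check, and no p-value is given.

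The WT library had 6650066 assigned reads over 13078 genes, and the KO library had 6185108 over 12754. *Trim28*, the deleted gene, had 4485 reads in WT and 180 in KO (log2 fold change -4.53). Of 6 T-cell markers 5 had reads, 15816 in sum in WT and 14920 in KO. *Cd4* (7904 and 6598 reads, log2 fold change -0.16) and *Lck* (555 and 439, -0.23) were lower in KO beyond counting error, and *Cd3e* (4407 and 4778, 0.22), *Cd3d* (904 and 950, 0.18) and *Cd3g* (2046 and 2155, 0.18) were higher. The Th17 markers *Il17a*, *Il17f*, *Rora*, *Il23r* and *Maf* had reads in both libraries, with 12521 reads in sum in WT and 2309 in KO. Markers of other blood cells were few: those of B cells summed to 75 and 44 reads, of CD8 T cells to 53 and 29, of macrophages to 23 and 17 and of dendritic cells to 11 and 15, while none of the NK cell and erythroid markers had a row. In such bulk cultures, fewer cells of a type and less RNA per cell cannot be told apart.

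Polyamines (putrescine, spermidine and spermine) are small, positively charged molecules that bind RNA and DNA and that T cells make in large amounts when they are activated and divide. Ornithine decarboxylase makes putrescine from ornithine, and spermidine and spermine synthase each add an aminopropyl group supplied by S-adenosylmethionine decarboxylase. Antizymes bind ornithine decarboxylase and send it to the proteasome, and antizyme inhibitor releases it. Spermidine is also used to turn 1 lysine of the translation factor eIF5A into hypusine, in a pair of steps catalysed by deoxyhypusine synthase and deoxyhypusine hydroxylase.

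A few sites in these transcripts show how the pathway controls itself and where hypusine is made. Antizyme mRNA is read in an unusual way: ribosomes meet a stop codon early in the message and make full-length antizyme only when they slip forward by 1 base there, which they do more often when polyamines are abundant. The 45 bases around that stop codon, in capitals, are shown for both antizyme genes from the RefSeq transcripts on GRCm38. The *Oaz1* window lies on the plus strand at chr10:80828274-80828318 and the *Oaz2* window on the plus strand at chr9:65686251-65686295, and 38 of the 45 bases are identical.
Oaz1: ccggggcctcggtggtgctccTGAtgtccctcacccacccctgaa
Oaz2: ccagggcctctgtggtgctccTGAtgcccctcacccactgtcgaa
The lysine of eIF5A that carries hypusine is residue 50, and its codon is in capitals in the 33 coding bases below, on the minus strand at chr11:69919151-69919183.
Eif5a: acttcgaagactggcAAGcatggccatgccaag
The coding sequence of *Amd1* has a near-identical copy, *Amd2*, elsewhere on chromosome 10. Over 1005 coding bases they differ at 1 base, the capital at the end of the stretches below, which span coding positions 737 to 796 and lie on the minus strand at chr10:40290186-40290245 (*Amd1*) and chr10:35710764-35710823 (*Amd2*).
Amd1: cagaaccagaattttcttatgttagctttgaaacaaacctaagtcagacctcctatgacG
Amd2: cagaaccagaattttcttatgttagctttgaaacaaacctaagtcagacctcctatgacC

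None of the 10 genes differed by 2-fold or more between the libraries. Over all tested genes, 11.7% did so, 7.94% in the direction of lower reads in KO and 3.75% in the direction of higher reads. Those that differed beyond counting error were not all in 1 direction. The median log2 fold change (KO/WT, each count plus 0.5 divided by its library total) was -0.0017 over the 10 genes, with a range from -0.59 to 0.52, and -0.02 over all tested genes. The exact 95% interval of the fold change, which covers counting error only, lay below no change for 1 gene (*Odc1*), above it for 4 (*Sms*, *Oaz1*, *Eif5a* and *Dhps*) and included it for 5. Over all tested genes such intervals lay below no change for 25% and above it for 23.5%, so a count of 5 of 10 is close to the 48.5% found in general.

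**Figure D1:**
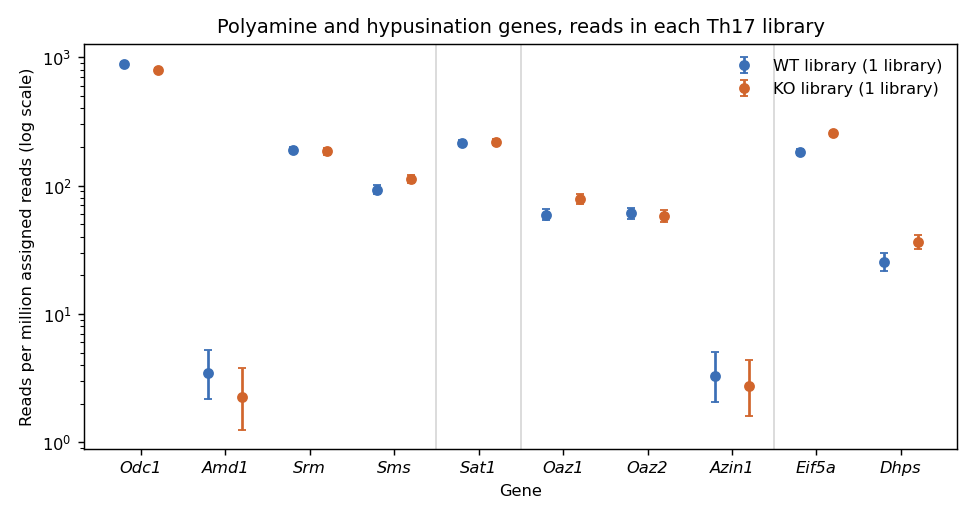
CPM (reads per 1000000 assigned reads, log scale) of each gene in the WT (blue) and KO (orange) library, 1 library each, with exact Poisson 95% intervals; vertical lines separate synthesis, catabolism, regulators of ornithine decarboxylase and hypusination. *Odc1* stands at 887 and 794, while *Amd1* and *Azin1* stand under 4 in both libraries.

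A trend with transcript length runs through these libraries and touches several of the values below. Across the 10815 tested genes with a transcript length, Spearman's rho of the log2 fold change with length was -0.40 (a description, since all genes come from the same 2 libraries). Shorter transcripts tended to be higher in KO, and 6 of the 10 genes have transcripts of 1075 to 1844 bases against a median of 2922 over tested genes. Each log2 fold change was therefore also given after subtraction of a smooth (loess) curve against length. After that correction the interval lay below no change for 4 of the 10 genes (*Odc1*, *Srm*, *Sat1* and *Oaz2*; 20% of all genes) and above it for 2 (*Sms* and *Eif5a*; 23%).

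**Figure D2:**
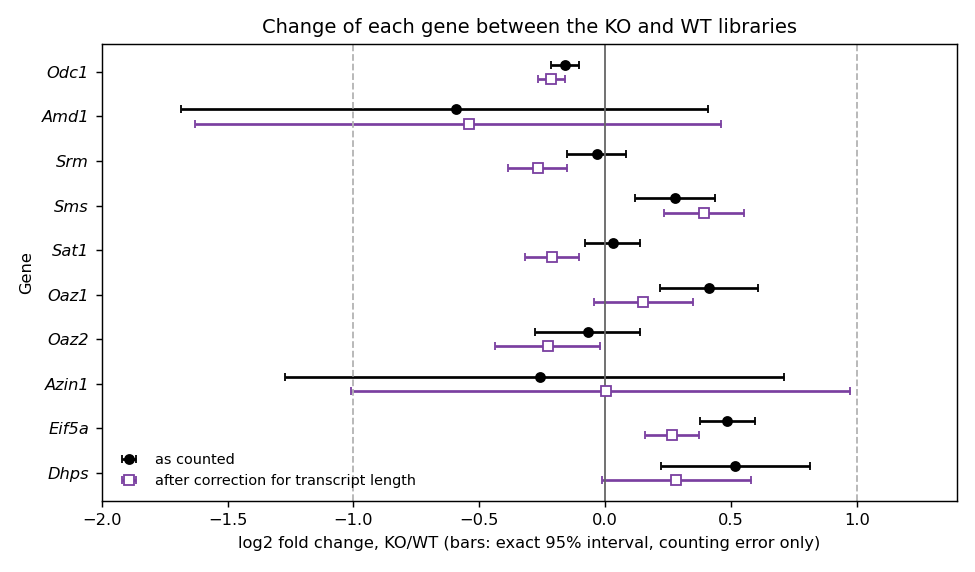
Log2 fold change (KO/WT) of each gene with exact 95% counting intervals, as counted (black circles) and after correction for transcript length (open squares); dashed lines mark 2-fold. The value of every gene lies within 2-fold. On both scales the whole interval lies below 0 for *Odc1* and above 0 for *Sms* and *Eif5a*.

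Among the synthesis genes, *Odc1* (chr12:17544808-17551502), which encodes the rate-limiting ornithine decarboxylase, had 5901 reads in WT and 4912 in KO. It was the most abundant of the set in both libraries, at 887 and 794 CPM, and held 51.7% of the set's reads in WT and 45.6% in KO. Among all genes it ranked 126 by reads in WT and 169 in KO. The log2 fold change was -0.16 (95% interval -0.21 to -0.11), and -0.21 after length correction, so the KO library was slightly lower beyond counting error on both scales.

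*Amd1* (chr10:40287458-40302188), which encodes the decarboxylase that makes the aminopropyl donor, had 23 reads in WT and 14 in KO. These counts are small, and the log2 fold change of -0.59 had an interval from -1.68 to 0.41. It was the only gene of the set past 1.5-fold, where 17.7% of all genes were lower and 10.8% higher, and it was only just past it. The value was -0.57 with TMM scaling, -0.58 with DESeq2 size factors, -0.54 after length correction, -0.44 after GC correction and -0.45 with 5 added to each count, all short of 1.5-fold. With upper-quartile scaling (-0.60) and without the X and Y chromosomes (-0.60) *Amd1* stayed past 1.5-fold. Its copy *Amd2* had 4 reads in WT and none in KO, where 3 reads, the limit that a count of 0 allows, would be 0.485 CPM. Reads of the near-identical copies cannot be told apart over almost all of their coding length, so the value of *Amd1* is uncertain.

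*Srm* (chr4:148591513-148594619), the gene of spermidine synthase, had 1253 reads in WT and 1139 in KO. The log2 fold change was -0.03 (-0.15 to 0.08), a difference within counting error. Its transcript is short (1328 bases), and after length correction the value was -0.27 (-0.38 to -0.15). With GC content taken out in place of length it was -0.12, and that interval too lay below no change.

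*Sms* (chrX:157443851-157492287), the gene of spermine synthase, had 617 reads in WT and 696 in KO. The KO library was higher by 0.28 (0.12 to 0.44) on the log2 scale, and by 0.39 (0.23 to 0.55) after length correction. *Sms* and *Sat1* lie on the X chromosome. The Y-linked genes *Ddx3y*, *Eif2s3y*, *Kdm5d* and *Uty* had reads in both libraries, with 730, 377, 374 and 256 in WT and 456, 459, 209 and 107 in KO. Their log2 fold changes were -0.57, 0.39, -0.73 and -1.15, in that order. *Xist* had no row in either library. The part of these sex-linked genes in the values of *Sms* and *Sat1* was not tested.

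The catabolic gene *Sat1* (chrX:155213126-155216449) encodes the acetyltransferase that marks spermidine and spermine for export or oxidation. It had 1421 reads in WT and 1349 in KO, which is 214 and 218 CPM, and a log2 fold change of 0.03 (-0.08 to 0.14). The sign depended on the correction: with length taken out the value was -0.21 (-0.32 to -0.10), and with GC content taken out it was 0.15.

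Among the regulators of ornithine decarboxylase, *Oaz1* (chr10:80826656-80829290), the main antizyme gene, had 393 reads in WT and 487 in KO. It was higher in KO by 0.41 (0.22 to 0.61) on the log2 scale. With a transcript of 1075 bases, the shortest of the set, it was at 0.15 (-0.04 to 0.35) after length correction, an interval that includes no change. Its paralog *Oaz2* (chr9:65676548-65690300), whose stop codon context is shown above, had 404 reads in WT and 358 in KO. The log2 fold change was -0.07 (-0.28 to 0.14), and -0.23 (-0.44 to -0.02) with the correction.

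*Azin1* (chr15:38487430-38519294) encodes antizyme inhibitor, a relative of ornithine decarboxylase that lacks its activity and binds antizyme more tightly. It had 22 reads in WT and 17 in KO, with a log2 fold change of -0.26 (-1.27 to 0.71). The interval holds a difference of 2-fold downwards and of 1.5-fold upwards, and the length-corrected value was 0.0035.

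In the hypusination branch both genes were higher in KO. *Eif5a* (chr11:69916712-69921958), the translation factor whose lysine codon is shown above, had 1210 reads in WT and 1576 in KO, a log2 fold change of 0.49 (0.38 to 0.60) that was 0.27 (0.16 to 0.37) after length correction. *Dhps* (chr8:85071486-85075162), the gene of the enzyme that transfers the aminobutyl group of spermidine to that lysine, had 169 reads in WT and 225 in KO. Its log2 fold change was 0.52 (0.22 to 0.81), the highest of the set, and with length correction it was 0.28 (-0.01 to 0.58), which includes no change. *Dhps* shares 127 of its 1332 exon bases (9.53%) with *Wdr83* on the opposite strand, a gene that had 141 reads in WT and 197 in KO (0.59). The strand setting of the counting was not stated, so reads in the shared bases cannot be told apart. *Eif5a* shares 0 exon bases with its opposite-strand neighbour *Gps2*.

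Levels of different genes were compared as RPKM, CPM per kilobase of the longest curated transcript. In WT the order was *Odc1* (348), *Sat1* (167), *Srm* (142), *Eif5a* (126), *Oaz1* (55.0), *Oaz2* (32.9), *Sms* (24.9), *Dhps* (19.1), *Amd1* (1.08) and *Azin1* (0.66). The counting intervals of neighbours in this order did not overlap except for *Amd1* and *Azin1*, the last pair. In KO the order began with *Odc1* (312), *Eif5a* (176), *Sat1* (171), *Srm* (139) and *Oaz1* (73.2), so *Eif5a* moved from the fourth to the second place, although its interval overlapped that of *Sat1*. *Oaz2* (31.4), *Sms* (30.2) and *Dhps* (27.3) followed, each overlapping the next, then *Amd1* (0.71) and *Azin1* (0.55), which also overlapped.

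These levels may depend on how reads with several matches were counted, which is not stated. A read can be placed uniquely only where its sequence occurs once in the genome, and many of these genes have processed copies. Of all 31-base windows in the transcript, the share that recurred elsewhere on the GRCm38 chromosomes was 94.4% for *Amd1*, 90.9% for *Oaz1*, 75.1% for *Oaz2*, 70.9% for *Odc1* and 52.4% for *Sat1*, and ran from 0 to 44.6% for the other 5 genes. Of the 10 genes, 5 thus had at least 50% of their windows elsewhere, against 4.95% of all tested genes with a transcript. These shares hold for 31-base windows, and the read length is not given in the sources used here. A longer read can hold bases that differ between copies. Other loci that held at least 10% of a gene's windows mostly had an annotated pseudogene: 9 of 10 loci for *Odc1*, 6 of 7 for *Amd1*, and *Oaz1-ps* alone, with 0 and 1 reads, for *Oaz1*. *Azin1* and *Dhps* had no such locus. Per kilobase of windows found nowhere else, *Oaz1* would stand at 622 CPM in WT and 829 in KO, *Odc1* at 1212 and 1085 and *Amd1* at 19.5 and 12.8. The file headers call the counts those of uniquely assigned reads. Whether this means that reads in shared windows were left out is not stated and was not tested.

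The number of annotated transcripts also went with read density. Over tested protein-coding genes the median was 15.1 RPKM for those with 1 curated RefSeq transcript and 4.71 RPKM for those with 4 or more. *Azin1*, with 4 transcripts, lay below the lower quartile of that class, and *Eif5a*, with 9, lay above its upper quartile. *Amd1*, with 1 transcript, lay below the lower quartile of its own class. The part of this annotation in the levels was not tested.

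**Figure D3:**
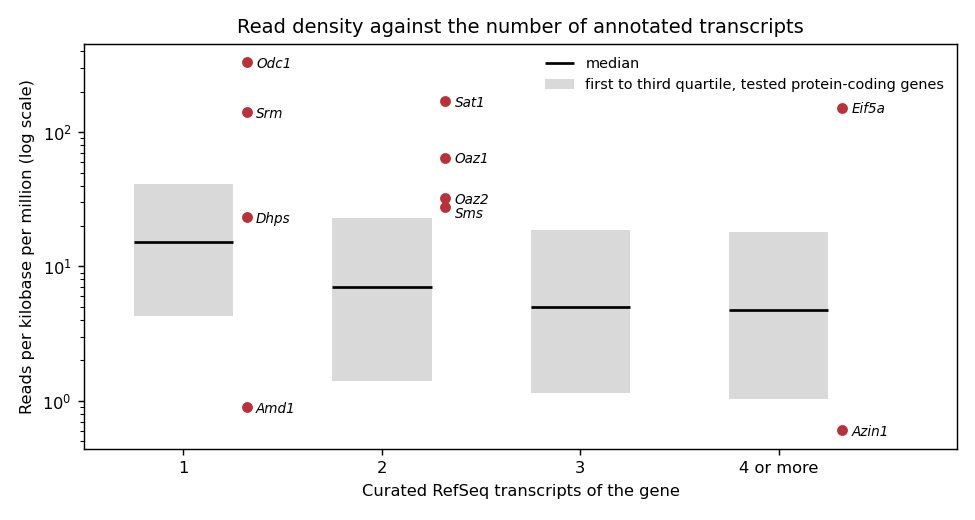
Read density (RPKM, log scale, mean of both libraries) of the 10 genes (red points) beside tested protein-coding genes grouped by number of curated RefSeq transcripts; grey boxes run from the first to the third quartile and black lines mark the median. *Amd1* and *Azin1* lie below the box of their class, and *Odc1*, *Srm*, *Sat1*, *Oaz1*, *Oaz2*, *Sms* and *Eif5a* lie above it.

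Ratios between pairs of these genes do not depend on library scaling. The ratio of *Odc1* to *Oaz1* reads, the enzyme against its inhibitor, was 15.0 in WT and 10.1 in KO, and the log2 of the KO ratio over the WT ratio was -0.57 (-0.78 to -0.37). After length correction it was -0.36, just outside that interval. As counted, the balance of *Odc1* and *Oaz1* reads was therefore shifted towards *Oaz1* in the KO library beyond counting error. For *Oaz2* the log2 fold change (-0.07, and -0.23 after length correction) lay near that of *Odc1* (-0.16 and -0.21). The ratio of *Odc1* to *Oaz2* was not computed. Most windows of *Odc1* and *Oaz1* recur elsewhere, as given above. For *Azin1* to *Oaz1* the value was -0.67 (-1.71 to 0.32), and for *Odc1* to *Azin1* it was 0.10 (-0.87 to 1.11), both limited by the small counts of *Azin1*. The 2 antizyme genes differed from each other: the ratio of *Oaz1* to *Oaz2* was 0.973 in WT and 1.36 in KO, a log2 difference of 0.48 (0.20 to 0.77), or 0.38 after length correction.

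Along the synthesis steps the ratio of *Srm* to *Sms* was 2.03 in WT and 1.64 in KO, a log2 difference of -0.31 (-0.51 to -0.11), or -0.66 after length correction. This was the pair with the largest length-corrected difference among the 9. The ratio of *Odc1* to *Sat1*, synthesis against catabolism, was 4.15 in WT and 3.64 in KO (-0.19, -0.31 to -0.07), and the difference was -0.0028 with length taken out. Ratios with *Amd1* were not resolved, at 0.43 (-0.57 to 1.52) for *Odc1* to *Amd1* and -0.56 (-1.66 to 0.45) for *Amd1* to *Srm*. For *Eif5a* to *Dhps* the log2 difference was -0.03 (-0.35 to 0.28), so the substrate and the enzyme did not differ from each other beyond counting error, with an interval that still holds -0.35 and 0.28.

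**Figure D4:**
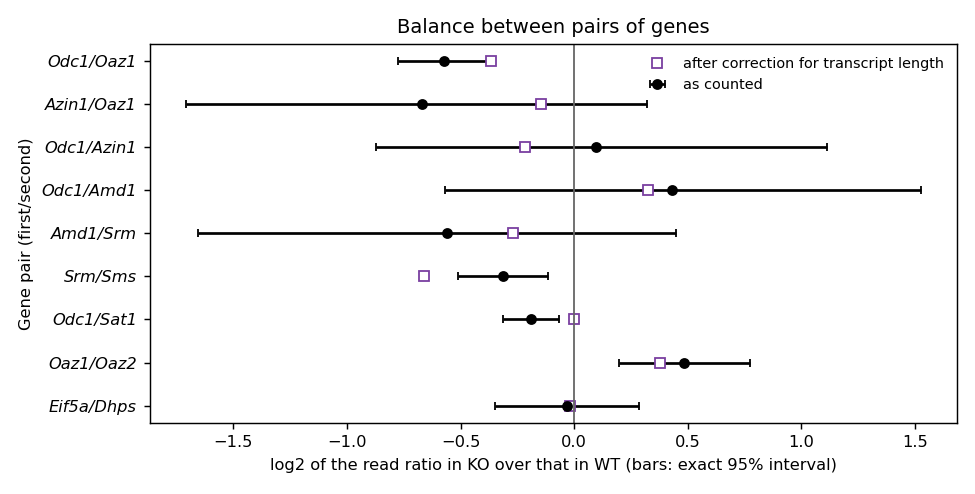
Log2 of the read ratio of each gene pair in KO over that in WT, with exact 95% counting intervals, as counted (black circles) and after correction for transcript length (open squares). *Odc1*/Oaz1 and *Srm*/Sms lie below 0 and *Oaz1*/Oaz2 above 0 on both scales, whereas *Odc1*/Sat1 lies at 0 after correction.

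Of 24 further pathway genes, 20 had reads and 14 were tested. At least 2-fold lower were 2, *Smox* and *Atp13a3*, and 0 were higher, against 7.94% and 3.75% of all tested genes. Counting intervals lay below no change for 2 (25% of all tested genes), above it for 6 (23.5%) and included it for 6, and the median log2 fold change was 0.27. *Smox*, which encodes spermine oxidase, had 102 reads in WT and 39 in KO (-1.27, -1.85 to -0.74). *Atp13a3*, a polyamine transporter gene, had 21 and 9 reads (-1.07, -2.43 to 0.07), a difference within counting error that was under 2-fold after length correction (-0.67), after GC correction (-0.90) and with 5 added to each count (-0.79). *Atp13a2*, of the same transporter family, had 30 and 35 reads (0.32, -0.42 to 1.08).

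In the supply of S-adenosylmethionine, *Mat2a*, the synthetase subunit, had 2519 reads in WT and 1619 in KO (-0.53, -0.62 to -0.44), while *Ahcy*, which breaks down S-adenosylhomocysteine, had 3037 and 3419 (0.28, 0.20 to 0.35). *Mat2b*, the regulatory subunit, had 115 and 129 reads (0.27, -0.10 to 0.65). Methylthioadenosine, the by-product of spermidine and spermine synthesis, is salvaged through *Mtap* (186 and 248 reads, 0.52) and *Adi1* (282 and 491 reads, 0.90, 0.69 to 1.12), which were higher in KO, and *Mri1* (498 and 472, 0.03) and *Apip* (89 and 99, 0.26), whose intervals included no change. *Oat*, of ornithine metabolism, was higher (471 and 548 reads, 0.32), as was the oxidase gene *Paox* (171 and 212, 0.41), whose length-corrected interval included no change. The share of 31-base windows that recurred elsewhere was 83.0% for *Paox*, 79.5% for *Ahcy*, 31.1% for *Mat2a* and 21.8% for *Adi1*. It was at most 5.22% for the others named here.

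In the hypusination branch *Dohh* (chr10:81384434-81388352), the gene of the hydroxylase that completes hypusine, had 286 reads in WT and 434 in KO. Its log2 fold change was 0.71 (0.49 to 0.93), and 0.48 after length correction. *Eif5a2*, the paralog of *Eif5a*, had 181 and 152 reads (-0.15, -0.47 to 0.17). *Eif5a*, *Dhps* and *Dohh*, the substrate and both enzymes, thus each had more reads in KO. Their intervals as counted lay above no change, as did those of 23.5% of all tested genes. The interval of *Eif5a2*, whose transcript is long (5026 bases), included no change. After length correction *Eif5a2* was at 0.11 (-0.21 to 0.43), an interval that overlaps that of *Eif5a* (0.16 to 0.37).

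**Figure D5:**
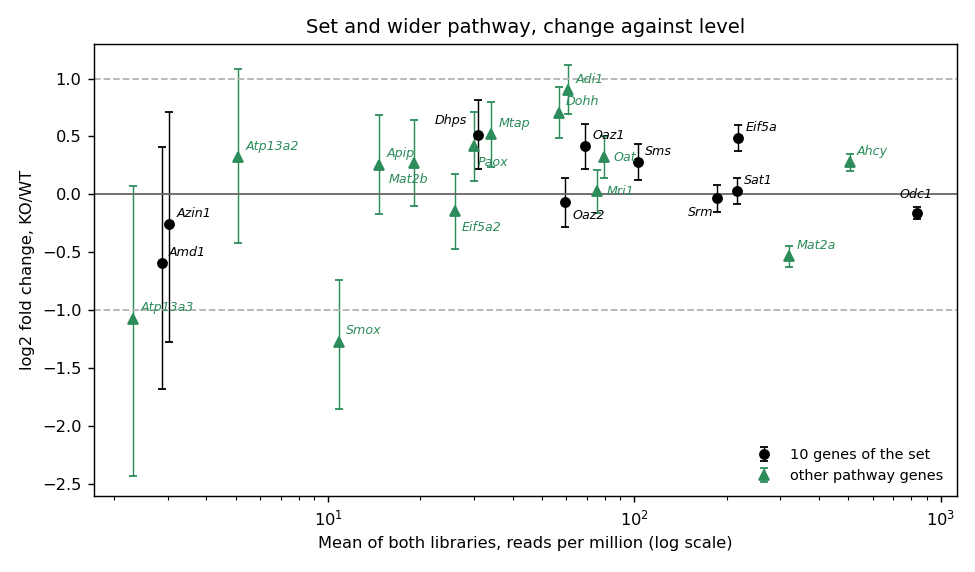
Log2 fold change (KO/WT) with exact 95% counting intervals against mean level (CPM, log scale) for the 10 genes (black circles) and 14 tested genes of the wider pathway (green triangles); dashed lines mark 2-fold. *Smox* and *Atp13a3* lie below the lower dashed line, and *Dohh* and *Adi1* are the highest points.

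Other genes of the list had few reads or none. *Amd2*, *Arg1*, *Arg2*, *Enoph1*, *Oaz3* and *Slc18b1* had 4 reads or fewer in either library, and *Agmat*, *Azin2*, *Sat2* and *Slc12a8* had no row in either table. Among transcription factors that act on *Odc1* through the MYC network, *Max* had 34 reads in WT and 24 in KO, *Mnt* 783 and 624 (-0.22) and *Mxd1* 1187 and 1361 (0.30), while *Mycn* had 2 reads and none. *Myc* itself is not reported here.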

How the data were processed

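RNA-seq libraries of WT and KO Th17 cells, 1 per genotype, were analysed; 6 ChIP-seq samples were not used here. Per the file headers, the authors deposited the counts of uniquely assigned reads for each gene, not normalized. Only genes with reads have a row, and a gene missing from 1 table was given 0 reads there. The paper names SOAP2 and mm10 for the RNA-seq reads, and the submitters' processing notes name bcl2fastq, HTSeq, Bowtie, SICER 1.1 and mm10 with no role. The annotation, strand setting, read length and handling of reads with several matches are not given in the sources used here.

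Counts were divided by library totals (6650066 and 6185108), 0.5 having been added to each, and their KO/WT quotient was taken on the log2 scale. Genes whose reads over both libraries came to 10 or more were counted as tested. The limit of 2-fold follows the study, and no test of the genotypes was possible with 1 library each. Intervals of fold changes are exact (Clopper-Pearson, 95%) and intervals of ratios are exact conditional intervals (SciPy 1.17.1); reads are not independent molecules, so both cover counting error only. At these depths 3 reads are 0.451 CPM in WT and 0.485 CPM in KO.

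Positions, transcripts, lengths, GC content and sequences were taken from RefSeq on GRCm38, which is the assembly of mm10. Of the gene names, 12833 matched a symbol, 795 a unique older symbol and 76 none; 99.4% of tested genes had a transcript length. Length and GC corrections subtracted loess curves (statsmodels 0.14.6, span 0.3). Windows of 31 bases were searched on both strands of 21 chromosomes.

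Named genes were all 10 members, every gene with reads on a pathway list, known regulators of *Odc1* except *Myc*, and *Trim28*. Cell-type markers (most given only in sums) and sex-linked genes, of which *Xist* had no row, were also named. The values of 1 marker gene were left out and are not reported here. The members and lists were chosen with earlier results of these data known. Alternatives were TMM and an exact test with assumed coefficients of variation of 0.2 and 0.4 (edgeR 4.0.16), DESeq2 1.42.0 size factors, upper-quartile scaling, other count filters, 5 added to each count, a 1.5-fold limit, 2-fold with the counting interval, length and GC corrections and omission of X and Y. Calculations were tested on simulated data. R 4.3.3 and Python 3.11.15 were used.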

Additional observations from a re-analysis of the deposited data

How the results depend on the processing

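The count of 0 genes of the set at least 2-fold lower and 0 higher held under every alternative except the 1.5-fold limit, where 1 gene (*Amd1*) was lower. The median log2 fold change of the set ran from -0.10 (length correction) to 0.03 (GC correction), and the counts whose intervals excluded no change, 1 lower and 4 higher, were the same with TMM, DESeq2 and upper-quartile scaling, 4 and 2 with the length correction and 2 and 5 with the GC correction. Of 88 values of single genes, 83 stayed within the gene's counting interval as counted, and 2 changed sign, *Sat1* (-0.21) and *Azin1* (0.0035), both with the length correction. The 5 that fell outside that interval were *Srm*, *Sat1*, *Oaz1* and *Eif5a* with the length correction and *Sat1* with the GC correction. Many of the 88 could hardly move. The count filters cannot alter a gene's own value, and the scalings and the omission of X and Y shift every gene alike. Of 27 values of gene pairs, 23 stayed within the pair's counting interval as counted. The 4 outside it were *Odc1* to *Oaz1* and *Odc1* to *Sat1* with the length correction, and *Srm* to *Sms* with the length and the GC correction. *Odc1* to *Azin1* changed sign with the length correction (-0.22) and the GC correction (-0.07).

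The background counts moved most. In place of 864 lower and 408 higher genes, there were 551 and 262 with 5 added to each count, 2012 and 1152 without a filter (at least 1 read), 406 and 195 with at least 10 reads in each library, and 1927 and 1170 at 1.5-fold. With an exact test in edgeR they were 131 and 65 if the coefficient of variation is taken as 0.2, and 9 and 7 if it is taken as 0.4, none of them in the set. Depth limits *Amd1* and *Azin1*, with at most 23 reads. No paired analysis was possible because there is 1 library per genotype, and for the same reason no library could be left out.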
